A study of Homo sapiens with 4 samples.

Results

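The BCL2 family genes described here are 10 of the 33538 genes listed for each library, taken by their symbols: BCL2, BCL2L1, MCL1, BAX, BAK1, BCL2L11, BBC3, PMAIP1, BID and BIK. All 10 were found once each. Their levels were compared across 4 single-cell RNA sequencing libraries of LNCaP, an established line from a human prostate cancer metastasis, and lines derived from it. LNCaP was given the solvent DMSO (0.1%) for 48 h, and LNCaP-ENZ48 the prostate cancer drug enzalutamide (10 µM) for 48 h. RES-A and RES-B are resistant lines grown out of LNCaP under long drug exposure, RES-A in rising enzalutamide and RES-B in the related compound RD-162, and both were kept in 10 µM enzalutamide. Each group is 1 library of 1 line, so line, treatment and library cannot be told apart and no difference has a replicate check.

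The libraries held 1782 to 4569 kept cells and 50208831 to 60838227 UMIs (unique molecular identifiers, counted so that 1 captured RNA molecule counts 1 time). Median UMIs per cell ranged from 12138 in RES-A to 27079.5 in LNCaP, and the median mitochondrial share from 9.38% in LNCaP-ENZ48 to 12.2% in RES-B. Any pair of libraries shared 2 to 12 cell barcodes. All 7 luminal prostate markers were detected in every library, but KLK2 and KLK3 had only 5 and 2 UMIs in RES-A, where KRT8 and KRT18 remained at 213 and 639 CPM. The 3 basal markers summed to at most 0.299 CPM and the 4 immune markers to at most 0.192 CPM. The 4 stromal and endothelial markers summed to 1.95 to 4.24 CPM, most of it COL1A1.

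BCL2 family proteins decide whether the outer membrane of mitochondria stays closed. The guardians BCL2, BCL-xL (gene BCL2L1) and MCL1 hold the pore formers BAX and BAK1 in check. BH3-only proteins are the sensors: BIM (BCL2L11), PUMA (BBC3), NOXA (PMAIP1), BID and BIK bind guardians, and some bind pore formers directly. Once BAX or BAK1 opens the membrane, cytochrome c escapes and the apoptosome starts the caspases. PUMA and BAX are known as genes switched on by DNA damage, NOXA by damage and by the integrated stress response, and BIM by withdrawal of growth signals. Much of the family's regulation acts on the proteins, which were not measured.

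To determine how the family was set in each line, the UMIs of each gene in all kept cells of a library were added up and given per 1000000 UMIs of that library (CPM). Brackets hold exact 95% intervals that cover counting error only. A 3' library gives each molecule 1 count without regard to length, and levels of different genes are not compared. The 3 guardians together had 68.2 [65.9, 70.5] CPM in LNCaP and 63.9 [61.9, 66.0] in LNCaP-ENZ48 (given below as 48 h), with 57.9 [56.0, 59.9] for RES-A and 80.1 [77.7, 82.6] for RES-B. The sum of BAX and BAK1 was 65.9 [63.7, 68.2], 63.5 [61.6, 65.6], 69.0 [66.9, 71.2] and 44.3 [42.5, 46.1] CPM in the same order. The 5 BH3-only genes summed to 125, 106, 96.0 and 89.2 CPM. RES-B therefore had the highest guardian sum and the lowest sums of both other roles. These sums do not hold for each gene of a role. In RES-B MCL1 alone had 57.1 CPM while BCL2L1 was lower than in LNCaP, and BIK was higher against the BH3-only sum. RES-A had the lowest guardian sum, and its pore former interval overlapped that of LNCaP.

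**Figure D1:**
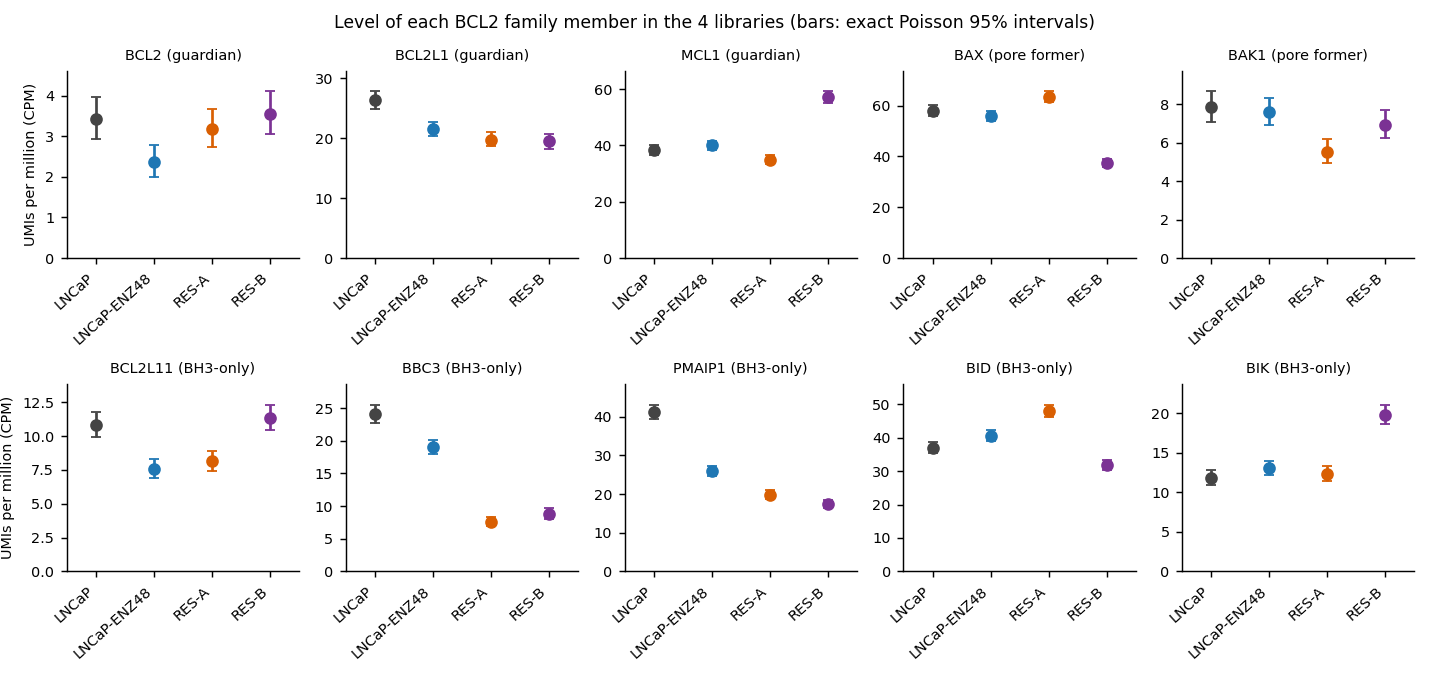
Level of each of the 10 genes (vertical axis, CPM, each panel from 0) in the 4 libraries (horizontal axis), with points for the library value and bars for the exact Poisson 95% interval. BBC3 and PMAIP1 are highest in LNCaP and lowest in the resistant lines, while in RES-B MCL1 and BIK stand above, and BAX below, the other 3 libraries.

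The sensor genes BBC3 and PMAIP1 varied most across the 4 libraries, and both were lowest in the resistant lines. BBC3 (ENSG00000105327; GRCh38 chromosome 19, 47220822 to 47232766, minus strand) had 24.1 [22.8, 25.5] CPM in LNCaP and 19.0 [17.9, 20.1] at 48 h, with 7.62 [6.92, 8.37] for RES-A and 8.85 [8.06, 9.69] for RES-B. BBC3 encodes PUMA, which binds all guardians. The parental and 48 h libraries were high and both resistant lines low, with a gap of 1.10 on the log2 scale between LNCaP-ENZ48 and RES-B. PMAIP1 (ENSG00000141682; chromosome 18, 59899996 to 59904305, plus strand) had 41.3 [39.5, 43.1] CPM in LNCaP and 25.9 [24.6, 27.2] at 48 h, with 19.8 [18.6, 21.0] for RES-A and 17.4 [16.3, 18.6] for RES-B. Its level was lower in each library of that order, and the ratio of each neighbouring pair left out 0 on the log2 scale. In cells thinned to 5000 UMIs, 12.1% [10.6, 13.7] of LNCaP cells had a BBC3 UMI against 9.25% [8.40, 10.2] at 48 h, 3.52% [3.01, 4.10] in RES-A and 4.56% [3.93, 5.24] for RES-B. For PMAIP1 the shares were 16.8% [15.1, 18.7], 10.5% [9.62, 11.5], 8.56% [7.76, 9.41] and 7.36% [6.58, 8.21]. Without thinning, where LNCaP cells are deepest, they were 44.2%, 21.7%, 8.69% and 10.3% for BBC3 and 55.2%, 25.9%, 19.7% and 17.7% for PMAIP1. No cell type that lacks these genes is present for comparison. Markers of other cell types are given only as a low reference. They cannot show free RNA of the members themselves, which was not tested. The immune markers had UMIs in at most 0.112% of cells, and COL1A1 in 2.36% of cells in LNCaP, 1.46% at 48 h, 0.832% for RES-A and 1.06% for RES-B. In each library this was below the share for BBC3, with 0.832% beside 3.52% in RES-A. The share for BCL2 was below that of COL1A1 in LNCaP (1.91%) and at 48 h (1.14%). It was above that of COL1A1 in RES-A (1.75%) and RES-B (1.63%).

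To show what lies at the start of the genes that the results turn on, promoter windows of 300 bases (250 before and 50 after a RefSeq transcript start, GRCh38.p14) were read for BBC3, PMAIP1 and BAX. Capitals mark exact matches to the E-box CACGTG and to the core of the cyclic AMP response element, ACGTCA, on either strand. The PMAIP1 window is chr18:59899746-59900045 (plus strand), the BBC3 window chr19:47232618-47232917 (minus strand, 1 start of that gene), and the BAX window chr19:48954625-48954924 (plus strand).
PMAIP1: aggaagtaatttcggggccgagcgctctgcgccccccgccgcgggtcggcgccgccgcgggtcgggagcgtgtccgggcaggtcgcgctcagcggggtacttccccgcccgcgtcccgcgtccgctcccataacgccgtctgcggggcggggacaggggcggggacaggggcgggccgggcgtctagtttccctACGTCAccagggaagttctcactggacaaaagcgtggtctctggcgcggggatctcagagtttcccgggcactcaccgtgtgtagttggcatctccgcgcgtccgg
BBC3: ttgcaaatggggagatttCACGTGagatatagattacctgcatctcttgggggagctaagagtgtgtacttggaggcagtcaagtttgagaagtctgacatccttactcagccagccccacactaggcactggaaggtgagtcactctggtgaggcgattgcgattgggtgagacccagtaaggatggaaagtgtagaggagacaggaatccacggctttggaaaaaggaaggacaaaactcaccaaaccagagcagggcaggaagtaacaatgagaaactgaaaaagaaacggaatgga
BAX: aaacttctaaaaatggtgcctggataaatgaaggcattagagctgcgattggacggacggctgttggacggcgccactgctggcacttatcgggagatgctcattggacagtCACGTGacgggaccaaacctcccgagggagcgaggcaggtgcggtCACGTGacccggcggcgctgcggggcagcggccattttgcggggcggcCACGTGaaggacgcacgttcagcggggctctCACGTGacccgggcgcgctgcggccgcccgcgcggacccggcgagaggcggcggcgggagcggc
The E-box occurs in 7.26% and the response element core in 7.98% of all 35116 windows of this length. BAX holds 4 E-boxes, BBC3 1 and PMAIP1 none, while PMAIP1 is the only one of the 8 family genes with a window in the table to hold the response element core. The GC box GGGCGG, found in 45.0% of windows, occurs 4 times in PMAIP1, 2 times in BAX and not in the BBC3 window. CCAAT (34.6% of windows) occurs 2 times in BAX and 1 time in BBC3, and TATAAA (11.5%) in none of the 3. None of these words overlaps another in the 3 windows, and a match is a description of the letters only.

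Short-term treatment was examined by setting LNCaP-ENZ48 against LNCaP. After 48 h of enzalutamide PMAIP1 was the 1 family gene past 1.5-fold (0.58 on the log2 scale), and it was lower. The other 9 stayed within 1.5-fold, and the guardian MCL1 and both pore formers differed from LNCaP by less than their counting error. Among all 12627 genes that averaged 1 CPM or more, which include all 10 members, 5.34% were at least 1.5-fold lower and 2.72% at least 1.5-fold higher. Higher genes made up 33.8% of these, but 50.3% under TMM and 51.8% under median-of-ratios scaling, which centre most genes on no change. The log2 ratio of PMAIP1 was -0.67 [-0.77, -0.58], and it lay just short of 1.5-fold in cells called G1 (-0.58) and under TMM (-0.58) and median-of-ratios (-0.57) scaling. BCL2 (ENSG00000171791; chromosome 18, 63123346 to 63320128), the guardian after which the family is named, had 3.43 CPM in LNCaP and 2.37 in LNCaP-ENZ48 (-0.53 [-0.86, -0.21]). BCL2L11 (ENSG00000153094; chromosome 2, 111119378 to 111168444) had 10.9 and 7.58 CPM (-0.52 [-0.70, -0.34]). Both lay below LNCaP beyond counting error but inside 1.5-fold. BCL2L1 (-0.29 [-0.40, -0.18]) and BBC3 (-0.34 [-0.46, -0.23]) were lower by less, and BID was higher (0.13 [0.05, 0.22]). MCL1 was at 0.06 [-0.03, 0.15], BAX at -0.05 [-0.13, 0.02], BAK1 at -0.05 [-0.25, 0.15] and BIK at 0.14 [-0.02, 0.29]. BAX and BAK1 turned in sign under TMM scaling (0.04 and 0.05) and median-of-ratios scaling (0.05 for both). The median ratio of the 10 genes was -0.17, against -0.08 for all genes tested.

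**Figure D2:**
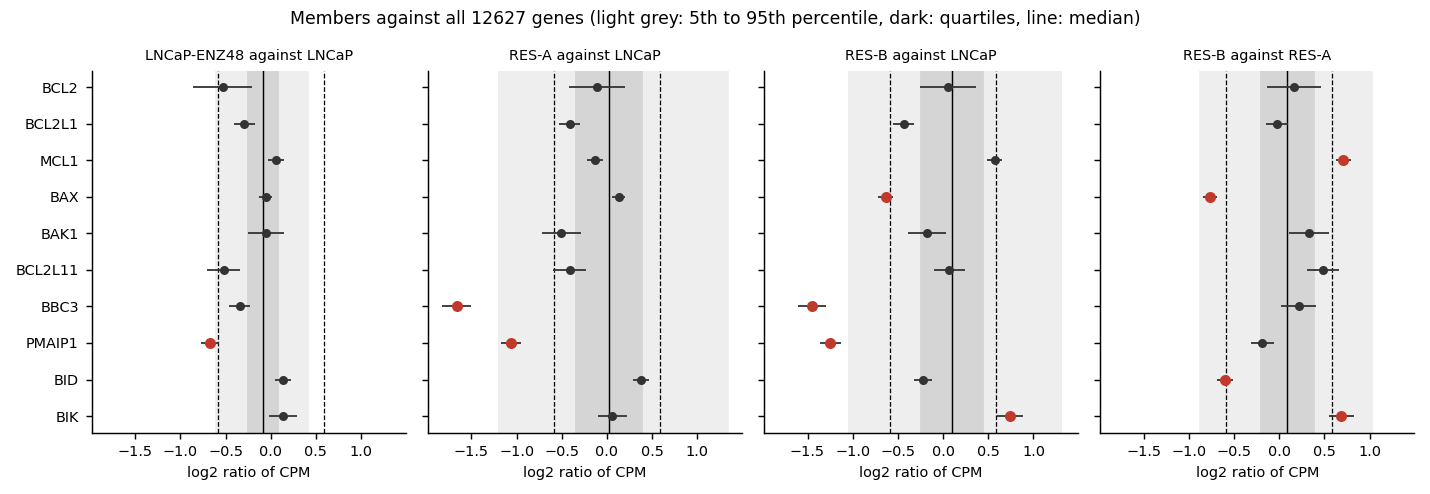
Log2 ratio of CPM (horizontal axis) of each member in the 4 comparisons, with 95% counting intervals, over the distribution of all 12627 genes tested (light band, 5th to 95th percentile, dark band, quartiles, solid line, median); dashed lines mark 1.5-fold and red points lie past it. PMAIP1 in LNCaP-ENZ48, BBC3 in RES-A and both BBC3 and PMAIP1 in RES-B lie below the 5th percentile of all genes.

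Acquired resistance was examined first in RES-A against LNCaP, with the same LNCaP library as control in every comparison with LNCaP. BBC3 and PMAIP1 were past 1.5-fold, both lower, and none of the other 8 genes was. In this comparison 14.9% of all genes tested were at least 1.5-fold lower and 16.1% at least 1.5-fold higher. The higher share of these, 52.0%, was 45.8% under TMM and 47.4% under median-of-ratios scaling. BBC3 was 3.17-fold lower (-1.66 [-1.82, -1.50]), and 12255 of the 12627 genes had a higher ratio. PMAIP1 was 2.09-fold lower (-1.06 [-1.17, -0.96]). Both remained past 1.5-fold under all 8 alternatives of cells, depth and scaling, between -1.85 and -1.67 for BBC3 and between -1.18 and -0.90 for PMAIP1. The pore former BAK1 (ENSG00000030110; chromosome 6, 33572547 to 33580293), whose processed pseudogene copies make its level less certain, had 7.85 CPM in LNCaP and 5.53 in RES-A (-0.51 [-0.72, -0.29], and past 1.5-fold at -0.59 in cells with a mitochondrial share under 10%). BAX (ENSG00000087088; chromosome 19, 48954815 to 48961798), its partner, had 58.1 and 63.5 CPM (0.13 [0.06, 0.20], and 0.03 after thinning to 5000 UMIs). Of the remaining sensors, BID (ENSG00000015475; chromosome 22, 17734138 to 17774770) was higher (37.0 and 48.0 CPM, 0.38 [0.29, 0.46]), BCL2L11 lower (-0.41 [-0.59, -0.23], and past 1.5-fold at -0.62 after thinning to 5000 UMIs), and BIK not told apart from LNCaP (0.06 [-0.10, 0.22]). The guardians were lower or level: BCL2L1 (ENSG00000171552; chromosome 20, 31664452 to 31723989) at -0.41 [-0.53, -0.30], MCL1 at -0.14 [-0.23, -0.04] (-0.01 in cells called G1) and BCL2 at -0.11 [-0.42, 0.20]. The members' median was -0.27, beside 0.02 for all genes.

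RES-B against LNCaP showed the same pair low, together with BAX on the low and BIK on the high side. BBC3 was 2.73-fold lower (-1.45 [-1.61, -1.29]), PMAIP1 2.37-fold lower (-1.25 [-1.36, -1.13]) and BAX 1.55-fold lower (-0.64 [-0.72, -0.55]). BIK (ENSG00000100290; chromosome 22, 43110750 to 43129712), a sensor of the endoplasmic reticulum, was 1.67-fold higher (0.74 [0.59, 0.89]). These 3 lower and 1 higher members stand beside 11.6% of all genes at least 1.5-fold lower and 17.8% at least 1.5-fold higher. The higher genes were 60.5% of those past 1.5-fold, and 48.8% and 49.7% under TMM and median-of-ratios scaling. MCL1 (ENSG00000143384; chromosome 1, 150560895 to 150579738) lay just inside 1.5-fold at 0.57 [0.49, 0.65]. It had 38.4 [36.7, 40.2] CPM in LNCaP and 40.0 [38.5, 41.6] at 48 h, with 35.0 [33.5, 36.6] for RES-A and 57.1 [55.1, 59.2] for RES-B, so that RES-B stood above the 3 others. BAX had 58.1 [56.0, 60.2], 56.0 [54.1, 57.9], 63.5 [61.4, 65.6] and 37.4 [35.7, 39.1] CPM in the same order. Again RES-B stood apart, here on the low side. BIK had 11.9 [10.9, 12.9], 13.1 [12.2, 14.0], 12.3 [11.5, 13.3] and 19.8 [18.7, 21.1] CPM, and the first 3 were not told apart from their neighbours. BCL2L1 was lower (-0.44 [-0.56, -0.32]) and BID slightly lower (-0.22 [-0.32, -0.13]). BCL2 (0.05 [-0.25, 0.36]), BAK1 (-0.18 [-0.39, 0.03]) and BCL2L11 (0.07 [-0.10, 0.24]) were not told apart from LNCaP, and BCL2 (-0.05 and -0.04) and BCL2L11 (-0.04 and -0.03) turned in sign under TMM and median-of-ratios scaling. The members' median was -0.20, with 0.10 for all genes. In cells with a mitochondrial share under 10%, of which RES-B had 787, BBC3 in RES-B was at 14.0 [11.7, 16.7] CPM and its ratio at -0.85. BAX was inside 1.5-fold in cells called G1 (-0.53) and in cells under that mitochondrial share (-0.55).

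The resistant lines were then set against each other. MCL1 (0.71 [0.62, 0.79]) and BIK (0.68 [0.55, 0.82]) were past 1.5-fold higher in RES-B, where 14.6% of all genes were. BAX (-0.76 [-0.84, -0.68]) and BID (-0.60 [-0.69, -0.51]), the latter a sensor cut by caspase 8, were past 1.5-fold lower, where 9.34% of all genes were. BID had 37.0 CPM in LNCaP and 40.7 at 48 h, with 48.0 for RES-A and 31.8 for RES-B. The levels of BID in the resistant lines lay on either side of LNCaP. BCL2L11 (0.48 [0.30, 0.66]), BAK1 (0.32 [0.10, 0.55]) and BBC3 (0.21 [0.02, 0.41]) were higher in RES-B by less than 1.5-fold, and PMAIP1 was lower (-0.19 [-0.31, -0.06]). BCL2 (0.16 [-0.14, 0.47]) and BCL2L1 (-0.02 [-0.15, 0.10]) were not told apart. The members' median was 0.19 and that of all genes 0.08. Of all genes past 1.5-fold, 61.1% were higher, and 54.0% and 53.1% under TMM and median-of-ratios scaling. In cells with a mitochondrial share under 10%, BBC3 was at 0.88 and BCL2L11 at 0.71, which adds both to the genes past 1.5-fold, and BCL2L11 was also past it after thinning (0.68).

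To see whether the surroundings of each gene differed in the same way, up to 25 genes that averaged 10 CPM or more were taken on each side along the chromosome. BBC3 lay apart from its surroundings in both resistant lines: its 50 neighbours had a median of -0.00038 in RES-A and -0.03 for RES-B, and 1 of 50 was as low as BBC3 in each. The genes next to it, SAE1 (-0.13 in RES-A, -0.04 in RES-B) and NAPA (0.15 and 0.73), were not low. The surroundings of PMAIP1 were low in RES-A alone of the resistant lines. In RES-A its 48 neighbours had a median of -0.47 and 7 were as low as PMAIP1, with LMAN1 at -0.87 and PIGN at -0.66 beside it. In RES-B the same neighbours had a median of 0.04, and 2 were as low. BCL2, on the same arm of chromosome 18, had neighbours at -0.46 in RES-A and was itself at -0.11. Its neighbours start between 49036387 and 80109262 and those of PMAIP1 between 46803218 and 80109262. These sets are thus largely the same genes over a wide region, not separate observations. The sets of BBC3 and BAX on chromosome 19 also overlap. BIK went against its surroundings in RES-B, where its 50 neighbours on chromosome 22 had a median of -0.30 and 1 was as high. BID, elsewhere on chromosome 22, had 28 neighbours with a median of -0.30 in RES-B against RES-A, of which 3 were as low. For BAX, 5 of 50 neighbours were as low in RES-B against LNCaP (median -0.03) and 1 of 50 against RES-A. The neighbours of MCL1 on chromosome 1 had medians of 0.25 in RES-B against LNCaP and 0.31 against RES-A, and 10 and 6 of 50 were as high as MCL1. Copy number was not measured, and the part of the surroundings in these levels was not tested.

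**Figure D3:**
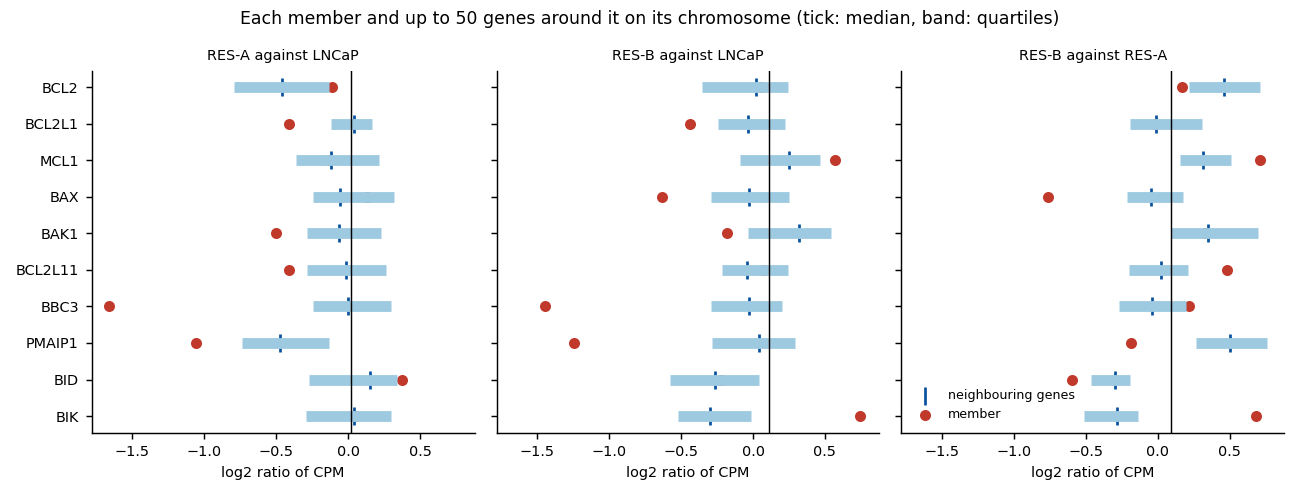
Log2 ratio of CPM (horizontal axis) of each member (red) beside the median (blue tick) and quartiles (blue band) of up to 50 neighbouring genes, in 3 comparisons, with the vertical line at the median of all 7460 genes of at least 10 CPM. BBC3 lies far below its neighbours in both resistant lines, whereas the neighbours of PMAIP1 and BCL2, which are largely the same genes, are themselves low in RES-A.

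Cells of 1 library were next split by called cell cycle phase, and PMAIP1 was higher in cycling cells in every library. In LNCaP it had 32.8 CPM in cells called G1, 72.8 in S and 56.3 in G2/M. In LNCaP-ENZ48 the levels were 22.0, 45.0 and 41.3 CPM, in RES-A 14.5, 37.5 and 25.6, and in RES-B 11.5, 43.7 and 26.5. S exceeded G1 by 1.15 [0.96, 1.33], 1.03 [0.78, 1.27], 1.37 [1.15, 1.58] and 1.93 [1.68, 2.17] on the log2 scale. In LNCaP-ENZ48 the intervals of S [38.2, 52.6] and G2/M [37.0, 46.0] overlapped, and in the other 3 libraries S lay above G2/M. Between 93.7% and 97.2% of all genes had a lower S to G1 ratio in the same library, and 9.81% to 12.7% of all genes were at least 1.5-fold higher in S than in G1. The share of cells called G1 was 72.2% in LNCaP, 82.3% at 48 h, 68.5% for RES-A and 74.3% for RES-B. In cells called G1 alone, PMAIP1 was at -1.18 in RES-A and -1.51 in RES-B against LNCaP. Cells of 1 library are not replicates, so these are descriptions, and the part of free RNA in the phase calls was not tested.

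BCL2L11, BCL2 and BIK also differed by phase. Among all genes, 10.2% to 17.1% were at least 1.5-fold higher and 6.18% to 7.63% at least 1.5-fold lower in G2/M than in G1. In S, 9.81% to 12.7% were at least 1.5-fold higher and 6.64% to 8.55% at least 1.5-fold lower than in G1. BCL2L11 had its highest level in LNCaP in cells called G2/M, with 19.6 CPM against 7.71 in G1 (1.35 [1.09, 1.61]). The G2/M to G1 ratio was 0.87 [0.54, 1.20] at 48 h, 0.37 [0.05, 0.69] for RES-A and 0.40 [0.12, 0.67] for RES-B. It was positive in all 4, with the resistant lines lowest and their intervals reaching into that of LNCaP-ENZ48. Restricting the comparison to G1 cells moved BCL2L11 from -0.52 to -0.21 at 48 h, from -0.41 to -0.06 for RES-A and from 0.07 to 0.47 for RES-B. BCL2 had 7.52 CPM in S and 2.65 in G1 in LNCaP. The S and G1 levels were 5.51 and 1.81 CPM at 48 h, 6.36 and 2.47 for RES-A, and 4.31 and 2.79 for RES-B, and only in RES-B did the interval of their ratio hold 0. BIK was lower in S than in G1 in every library, by ratios from -0.59 to -0.41. BCL2L1 was lower in G2/M than in G1 in 3 of 4 libraries, by -0.21 [-0.42, -0.02] in LNCaP, -0.56 [-0.80, -0.33] in RES-A and -0.38 [-0.63, -0.14] for RES-B, with -0.16 [-0.41, 0.08] at 48 h. In S its interval left out 0 in RES-A (-0.57 [-0.88, -0.28]) and held it in the other 3. BBC3 had no G2/M to G1 ratio told apart from 0 in any library, and its S to G1 interval left out 0 only at 48 h (-0.56 [-1.02, -0.13]). By their intervals MCL1 was higher and BID lower in G2/M than in G1 in 3 of 4 libraries each. Both lay within the usual range of genes: 32.9% to 72.7% of all genes had a lower ratio than MCL1 and 12.9% to 27.7% than BID. BAX was higher in G2/M in 2 libraries and lower in 1.

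**Figure D4:**
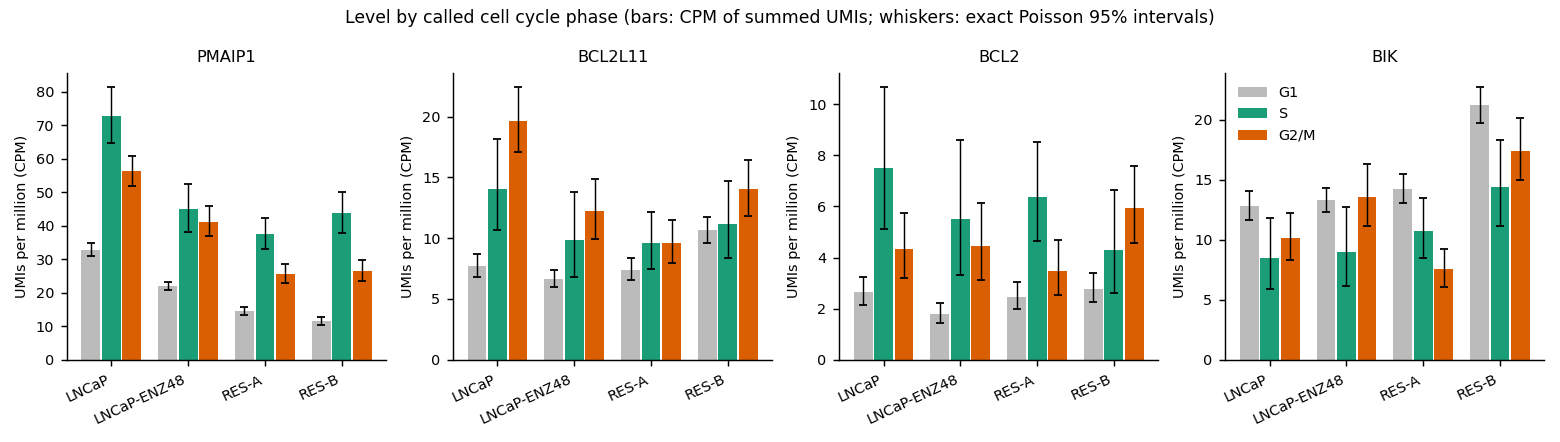
Level (vertical axis, CPM) of PMAIP1, BCL2L11, BCL2 and BIK in cells called G1, S and G2/M in each library, with bars for the value and whiskers for the exact Poisson 95% interval. PMAIP1 is higher in S and G2/M than in G1 in each library, while BIK is lower in S than in G1 in each.

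Cells were also ranked within each library by a score for each of 2 gene lists (the mean log expression of the list less that of control genes of like level), genes induced by DNA damage (15 genes, among them CDKN1A, GDF15 and PHLDA3) and genes of the amino acid stress response (16 genes, among them ATF4, DDIT3 and TRIB3). No family member is in either list. BBC3 followed the damage score. The highest-scoring 10% of cells and the other cells had 44.3 and 21.9 CPM of BBC3 in LNCaP, 44.4 and 16.2 at 48 h, 16.4 and 6.64 for RES-A, and 20.8 and 7.55 for RES-B. The log2 ratios were 1.02 [0.80, 1.23], 1.45 [1.25, 1.65], 1.30 [0.96, 1.63] and 1.46 [1.13, 1.78], above those of 98.8% to 99.4% of all genes, a background that includes the genes of the list and in which 2.84% to 4.32% were at least 1.5-fold higher. BAX was higher in the same cells, by 0.38 [0.22, 0.54] in LNCaP and 0.57 [0.43, 0.71] at 48 h, with 0.56 [0.42, 0.70] for RES-A and 0.61 [0.42, 0.79] for RES-B. The split was thus present in the resistant lines although BBC3 was low there: the highest-scoring cells of RES-A (16.4 CPM) and RES-B (20.8) had no more of it than the lower-scoring cells of LNCaP (21.9). PMAIP1 did not follow this score, with intervals that held 0 in all 4 libraries.

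PMAIP1 followed the stress score instead. It had 75.8 CPM in the highest-scoring 10% and 37.3 in the other cells of LNCaP, 45.8 and 23.6 at 48 h, 33.0 and 18.2 for RES-A, and 29.9 and 15.9 for RES-B. The ratios were 1.02 [0.86, 1.18], 0.96 [0.77, 1.14], 0.86 [0.63, 1.08] and 0.91 [0.65, 1.15], above those of 96.2% to 98.7% of all genes, of which 4.10% to 8.79% were at least 1.5-fold higher. Within cells called G1 they were between 1.07 and 1.18, so the split was as large without cells called S or G2/M. BBC3 was higher in stress-scored cells in RES-B (0.84 [0.48, 1.20]), and its interval held 0 in the other 3 libraries. BAX was not higher in these cells in any library. By its interval BIK was lower in them in 3 of 4 libraries (-0.63 to -0.11 over all 4), and in 1 within cells called G1. In 1 library each, BCL2 (RES-B, 0.94) and BCL2L11 (LNCaP, 0.48) were higher, and BCL2L1 (RES-A, -0.31), BAX (LNCaP, -0.21) and BID (RES-A, -0.36) lower. MCL1 was higher in RES-B (0.24) and lower at 48 h (-0.45). The damage splits within G1 cells ranged from 1.10 to 1.71 for BBC3 and from 0.44 to 0.67 for BAX. By mitochondrial share, PMAIP1 was lower in the highest than in the lowest tertile of cells in all 4 libraries (-0.87 to -0.44), and its interval left out 0 in 3 of 4 within cells called G1 (-0.72 to -0.11). The interval of BCL2 left out 0 in 3 of the 4 libraries in the split of all cells (-1.29 to -0.43 over all 4). BBC3 was lower in the highest tertile in RES-B (-0.51 [-0.84, -0.19], and -0.47 [-0.85, -0.09] within cells called G1). In the split of all cells its interval held 0 in the other 3 libraries.

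**Figure D5:**
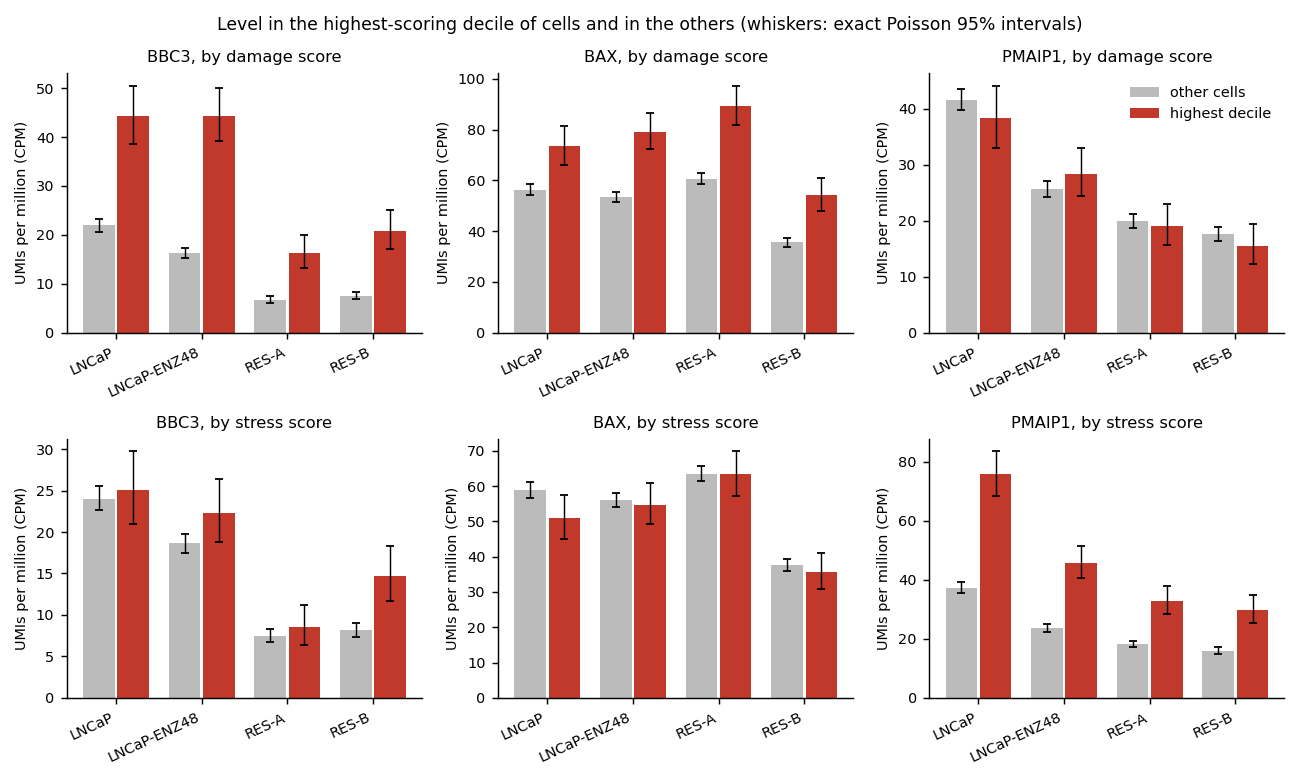
Level (vertical axis, CPM) of BBC3, BAX and PMAIP1 in the highest-scoring 10% of cells and in the other cells of each library, by damage score (upper row) and by stress score (lower row), with whiskers for the exact Poisson 95% interval. BBC3 and BAX are higher in damage-scored cells of each library, and PMAIP1 in stress-scored cells of each.

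The lists themselves were read across libraries as the setting of these genes. Their counts stand beside shares of all genes of 5.34% lower and 2.72% higher at 48 h, and 14.9% and 16.1% for RES-A. For RES-B these shares were 11.6% and 17.8%, and in RES-B against RES-A 9.34% and 14.6%. Of the 15 damage response genes, 2 were at least 1.5-fold lower and none higher at 48 h, 4 lower and 3 higher for RES-A, and 9 lower and none higher for RES-B, with medians of -0.33, -0.19 and -0.84. GDF15, a stress-induced cytokine, had 3877 CPM in LNCaP and 2278 at 48 h, with 322 for RES-A and 289 for RES-B, low in both resistant lines like BBC3. PHLDA3, an inhibitor of AKT, had 69.1, 67.7, 64.3 and 18.8 CPM, low only in RES-B, as BAX was. DDB2, a DNA repair gene, was at -1.85 in RES-B and -0.47 in RES-A, and the cell cycle inhibitor CDKN1A was at -1.52 in RES-B against RES-A. Between the resistant lines 7 of 15 were lower in RES-B and none higher (median -0.47). In RES-A the lower genes were GDF15, AEN (16.4 CPM in LNCaP and 8.18 in RES-A), CCNG1 (-0.81) and ZMAT3 (-0.73), and the higher ones BTG2 (0.67), PLK3 (0.63) and SPATA18 (0.86). SPATA18 was also the other gene lower in LNCaP-ENZ48 (-0.77). ZMAT3, BTG2, PLK3 and SPATA18 were named after their values were seen.

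Of the 16 amino acid stress genes, 4 were lower and none higher at 48 h, 8 lower and none higher for RES-A, and 4 lower and 1 higher for RES-B (medians -0.38, -0.61 and -0.40). The cystine transporter SLC7A11 had 170 CPM in LNCaP and 96.3 at 48 h, with 44.7 for RES-A and 69.1 for RES-B. ATF3, a stress-induced transcription factor, was at -0.80 in LNCaP-ENZ48 and -1.33 in RES-A. CHAC1 (-0.90) and MTHFD2 (-0.89) were lower in RES-B, CTH (-1.36) in RES-A and CEBPB (-0.68) in LNCaP-ENZ48. Named after their values were seen, STC2 was the last of the 4 in LNCaP-ENZ48 (-0.59), and ASNS (-0.60) was lower and VLDLR (0.87) higher in RES-B. RES-B against RES-A had 5 higher and none lower (median 0.30), which were CTH (0.92), ATF3 (0.86), TRIB3 (0.77) and, named after their values were seen, VLDLR (0.88) and SLC7A11 (0.63). Of 8 tested FOXO and JUN genes, regulators and binding partners of BH3-only proteins, 1 was lower in LNCaP-ENZ48, 2 were higher and 2 lower in RES-A, 2 higher in RES-B, and 3 higher in RES-B against RES-A. JUN had 45.5 CPM in LNCaP, 75.8 in RES-A and 139 in RES-B. DYNLL1, which tethers BIM, was at 0.66 in RES-A and 1.03 for RES-B. The others, named after their values were seen, were FOXO1, with 3.60 CPM in LNCaP, 2.14 at 48 h, 2.01 for RES-A and 3.29 for RES-B, and FOS, with 1.95, 2.25, 0.279 and 1.45 CPM.

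The rest of the death machinery was compared in the same way, beside the same shares of all genes. In lists this short several counts lie near those shares, such as 2 of 10 higher in RES-A, where 16.1% of all genes were. A list of 10 tested genes held other BCL2 family genes and the BAX activator MOAP1. Of these, 1 was higher in LNCaP-ENZ48, 2 higher and 3 lower in RES-A, and 1 higher and 1 lower in RES-B. In RES-B against RES-A 5 were higher and 1 lower (medians 0.10, -0.42, -0.17 and 0.35 over the 4 comparisons). BNIP3L, a mitophagy receptor, was at 0.88 in RES-B against LNCaP and 1.20 against RES-A, and its relative BNIP3 was at 1.00 against RES-A. BOK was at 0.63 and the BAX activator MOAP1 at -0.73 in RES-A, while BCL2L13, the gene next to BID, was at -0.74 in RES-B. MOAP1 was at 0.62 in RES-B against RES-A. The rest were BCL2L2, BMF and HRK, named after their values were seen. BCL2L2, a further guardian, had 7.55, 6.72, 3.45 and 6.09 CPM in the 4 libraries in the same order. BMF and HRK, both BH3-only sensors, went opposite ways in RES-A, BMF with 1.53, 1.69, 0.192 and 1.08 CPM (77, 103, 11 and 57 UMIs) and HRK with 1.10, 1.71, 4.17 and 0.932 CPM.

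Of 12 apoptosome and caspase genes, none passed 1.5-fold in LNCaP-ENZ48, 3 were higher and 1 lower in RES-A, 3 higher in RES-B, and 1 higher and 1 lower in RES-B against RES-A (medians -0.11, 0.04, 0.30 and 0.27). The executioner CASP6 had 8.98 CPM in LNCaP, 24.0 in RES-A and 16.5 in RES-B. CASP8, which cuts BID, was at 0.81 in RES-A and -0.69 in RES-B against RES-A, so that RES-A was the library high in both CASP8 and BID. CASP2 was at 0.74 in RES-A and AIFM1 at 0.63 in RES-B. Named after their values were seen, DFFB was the lower gene of RES-A (-0.61), CASP9 the last higher one of RES-B (0.82), and APAF1, the core of the apoptosome, the higher one of RES-B against RES-A (0.88). Of 10 death receptor genes, 1 was lower in LNCaP-ENZ48, 1 higher and 1 lower in RES-A, 4 higher and 3 lower in RES-B, and 1 higher and 3 lower in RES-B against RES-A (medians -0.24, 0.29, 0.27 and -0.14). The TRAIL receptor TNFRSF10B had 28.8 CPM in LNCaP and 11.5 in RES-B (-1.32 [-1.46, -1.18]), and was at -1.08 against RES-A. CFLAR, which blocks CASP8, was at 0.59 in RES-A and 0.62 in RES-B, and TNFRSF1A at 0.63 in RES-B. The other genes past 1.5-fold were named after their values were seen. TNFSF10, which encodes TRAIL itself, had 1.81 CPM in LNCaP and 0.477 at 48 h, with 0.715 for RES-A and 8.85 for RES-B. The receptors TNFRSF10A (10.9 CPM in LNCaP, 5.27 for RES-B) and TNFRSF10D (12.1 and 4.26 CPM), the latter a decoy, were lower in RES-B. Unlike for the members, the genes around these receptors were not examined. The low receptors in RES-B may therefore not be separate observations, and the part of their surroundings was not tested. RIPK1 was at 0.77 in RES-B.

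Of 7 caspase inhibitors and their antagonists, 1 was higher in LNCaP-ENZ48 (NAIP, 0.70), 1 lower in RES-A (BIRC2, -0.64), none past 1.5-fold in RES-B, and 2 higher in RES-B against RES-A (BIRC6, 0.73, and BIRC2, 0.61), with medians of -0.25, -0.03, 0.11 and 0.10. Of 9 outer membrane and MCL1 turnover genes, 1 was past 1.5-fold. This was VDAC3, a channel of that membrane, which had 94.2 CPM in LNCaP, 119 in RES-A and 59.0 in RES-B (-0.67 in RES-B against LNCaP and -1.01 against RES-A), with list medians of 0.01, 0.04, -0.19 and 0.06 over the 4 comparisons. The deubiquitinase USP9X and the ligases of the list that act on MCL1 protein stayed within 1.5-fold in all 4.

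Profiles over the 4 libraries were last compared by the Euclidean distance of log2 CPM, each centred on its mean, among 7460 genes that averaged 10 CPM or more. Nearest to BBC3 was JDP2, a partner of JUN family proteins, at a distance of 0.11, with 36.1, 28.0, 11.6 and 12.2 CPM in the 4 libraries in the order used above. FAM214A (0.18) and DGKD (0.19) followed, and 45 genes lay within 0.5. For PMAIP1, TBRG1 (0.13) and ABCC1 (0.16) were among the 3 nearest, and 172 genes lay within 0.5. For BAX the nearest were PARVB (0.04), R3HCC1 (0.06) and MB (0.07), with 922 genes within 0.5. Each profile has 4 points, so many genes share one.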

How the data were processed

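The 4 single-cell libraries, 1 per group, were assigned by their titles. Living cells were sorted and run on a droplet 3' kit. Cell Ranger 3.0.2 (per the submitters' processing notes) and a prebuilt GRCh38 reference gave the deposited UMI counts per gene and barcode, in the form the authors left them. Cell Ranger counts reads of a single gene on the sense strand. The processed pseudogenes of BAK1 are not among the genes counted, and how reads shared with them were assigned was not tested. The members and gene lists were chosen with earlier results of these data known.

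Cells were kept by the study's limits per library, which were higher for LNCaP (from 16000 UMIs) than for the others (from 5000), leaving 14727 cells. Doublets were not removed. UMIs were summed per library and given as CPM with exact Poisson 95% intervals, and log2 ratios with 95% intervals from the exact binomial (Clopper-Pearson) split of both libraries' UMIs. Both cover counting error only. With 1 library per group no test was run, and cells were not used as replicates. A gene was counted as higher or lower past 1.5-fold, beside all genes that averaged 1 CPM or more. For phases (Seurat lists), scores, shares of cells with a UMI and 1 alternative, cells were thinned to 5000 UMIs, and shares have exact binomial intervals.

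Named genes were all members and the gene on each side of a member. Of each list, up to 3 genes per comparison were named that averaged 10 CPM or more and were furthest past 1.5-fold. The 3 nearest profiles of the 3 members with the widest range were named as well. The nearest profile to PMAIP1, that of a Y-linked transcript, is not shown. USP9X was named after its values were seen, as were the genes the report says so of. Genes were placed by GENCODE 44, which held 33113 of the 33538 gene IDs, and RefSeq promoter windows were found for 8 of the 10 members. Alternatives were all barcodes, 1 filter for all libraries, cells called G1, a mitochondrial share under 10%, leaving out the top 5% of cells by UMIs, thinning, TMM (edgeR 4.0.16, R 4.3.3) and median-of-ratios scaling, and a 2-fold limit. Splits within G1 cells were added after seeing the data. Python 3.11.15, scipy 1.17.1 and scanpy 1.11.5 were used, and the ratio intervals were tested on simulated data.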

Additional observations from a re-analysis of the deposited data

Results flagged for a closer look

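MCL1, BAX and BID lay on opposite sides of LNCaP in RES-A and RES-B, with both counting intervals leaving out 0. The RES-B minus RES-A log2 differences were 0.71 for MCL1, -0.76 for BAX and -0.60 for BID. Each line is 1 library and both share the LNCaP control, so the difference was not tested. For MCL1 and BAX the side on which RES-A lay rested on small ratios (-0.14 and 0.13). MCL1 in RES-A was at -0.01 in cells called G1 and -0.07 after thinning to 5000 UMIs, and BAX at 0.03 after thinning. BID in RES-A was between 0.32 and 0.42 under the 8 alternatives of cells, depth and scaling.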

How the results depend on the processing

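Of 320 ratios of members recomputed under 8 alternatives, 273 stayed within their counting interval, 47 moved outside it and none of those told apart from 0 turned. The movements came from cells called G1 (12), a mitochondrial share under 10% (12), thinning to 5000 UMIs (9), TMM scaling (7) and median-of-ratios scaling (7). In LNCaP-ENZ48 the 1 member past 1.5-fold lower became 0 in cells called G1, under TMM and median-of-ratios scaling and at 2-fold, and 2 after thinning, where BCL2 (-0.76) joined PMAIP1. In RES-A against LNCaP the 2 lower became 3 under a mitochondrial share of 10% (BAK1) and after thinning (BCL2L11). In RES-B against LNCaP the 3 lower became 2 in cells called G1 and under a mitochondrial share of 10% (without BAX) and at 2-fold, and the 1 member higher became 2 in cells called G1, with MCL1 at 0.59, and 0 at 2-fold. In RES-B against RES-A the 2 higher became 1 in cells called G1, 4 under a mitochondrial share of 10%, 3 after thinning (BCL2L11) and 0 at 2-fold, and the 2 lower became 1 without the top 5% of UMIs, with BID at -0.58, and 0 at 2-fold. The cause of these movements was not tested. The median over all genes moved by 0.10 under median-of-ratios scaling in LNCaP-ENZ48 and by -0.11 under TMM scaling in RES-B against LNCaP. No paired analysis was possible because each group is 1 library. BCL2, with 144 to 187 UMIs per library, had the widest counting intervals.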
